A study of Mus musculus with 4 samples.

Results

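The genes described here are 10 regulators that mark how far cortical progenitors have advanced through development. The early set holds 6 genes, Lin28a, Lin28b, Igf2bp1, Igf2bp2, Igf2bp3 and Trim71, and the late set holds 4, Nfia, Nfib, Nfix and Zbtb20. They were chosen by name for their known roles, and all 10 were found among the 30637 genes of the deposited expression table. The series profiled telencephalic RNA of C57BL/6 mice at embryonic day 13 in 4 libraries, of which 2 are controls and 2 are Pd1CKO. The control libraries are labelled wild type, while the design text of the series calls these animals Pd1fl/fl, which carry a Pd1 gene flanked by recombination sites. Pd1CKO stands for the conditional knockout of Pd1, the immune checkpoint receptor encoded by Pdcd1. The driver of the recombination, the deleted exons and whether each library is 1 embryo or a pool are not given in the sources used here. Each genotype has a library numbered 1 and a library numbered 2, and the labels do not say what a shared number stands for.

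Cortical progenitors change their output with age, from deep layer neurons to upper layer neurons and then to glia. LIN28 proteins bind let-7 precursors and block their maturation, so that let-7 targets such as the Igf2bp mRNAs, Hmga2 and Trim71 stay high in young progenitors. As LIN28 declines, let-7 accumulates and these targets fall, while the nuclear factor I proteins and ZBTB20 increase and prepare progenitors for later neurons and gliogenesis.

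The sequences that link the early set to let-7 are shown because all 6 early genes hold a complete match to its seed. The mature forms below come from RefSeq on GRCm38.p6, are written 5′ to 3′, and carry the seed, bases 2 to 8, in capitals. Among the mature miRNA names of the table, 11 names at 13 loci share this seed, and 4 of them are printed, the archetype let-7a and the 3 whose host genes differed between libraries.
mmu-let-7a-5p: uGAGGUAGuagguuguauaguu
mmu-let-7b-5p: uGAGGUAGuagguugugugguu
mmu-let-7c-5p: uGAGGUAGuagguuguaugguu
mmu-let-7i-5p: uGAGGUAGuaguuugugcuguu

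An 8mer match is the complement of the seed followed by A, CTACCTCA on the transcript strand. The weaker 7mer forms are CTACCTC and TACCTCA, counted only where they are not inside an 8mer. In the longest annotated 3′ UTR of each gene (GENCODE M21, GRCm38), the 6 early genes held 21 matches, of which 12 were 8mers. Trim71 had 4 8mers, Igf2bp1 had 3, Lin28a had 2, and Lin28b, Igf2bp2 and Igf2bp3 had 1 each. For comparison, 2.90% of 21831 protein-coding genes and 7.06% of the 3641 tested genes with a 3′ UTR of at least 2000 nt held any 8mer. None of the 4 late genes held an 8mer, and their single match was a 7mer in Nfia. The 8mer nearest the stop codon of each early gene and the Nfia 7mer are written 5′ to 3′ on the transcript strand, with the match in capitals and the 14 preceding bases in lower case.
Lin28a, chr4:134005189-134005210, minus strand: cacagcctgttgaaCTACCTCA
Lin28b, chr10:45381022-45381043, minus strand: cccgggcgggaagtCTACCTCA
Trim71, chr9:114512472-114512493, minus strand: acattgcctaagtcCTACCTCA
Igf2bp1, chr11:95961778-95961799, minus strand: ctgtgcgaagtaaaCTACCTCA
Igf2bp2, chr16:22059473-22059494, minus strand: cacacaaataaaagCTACCTCA
Igf2bp3, chr6:49086787-49086808, minus strand: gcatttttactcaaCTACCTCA
Nfia, chr4:98117919-98117939, plus strand: atacaggagaagtgCTACCTC
A match describes the letters of the transcript and says nothing of binding in this tissue.

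**Figure D1:**
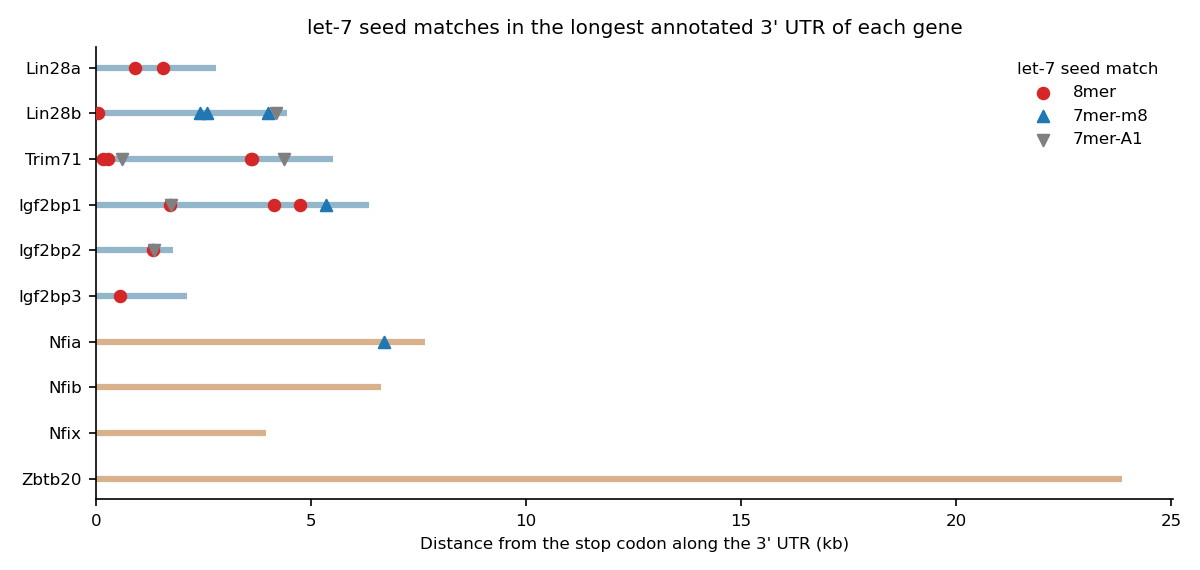
Positions of let-7 seed matches (symbols: circle, 8mer; triangles, both 7mer forms) along the longest annotated 3′ UTR of each gene (bar), as distance from the stop codon in kb. All 6 early genes (blue) carry at least 1 8mer and none of the 4 late genes (brown) does.

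Values are in FPKM, fragment counts scaled to exon length and library depth, and the libraries held 16200000 to 18740000 fragments as recovered from the FPKM steps. Libraries of the same number resembled each other more than libraries of the same genotype, with Pearson correlations across 13927 genes of 0.978 in number 1 and 0.987 in number 2 against 0.912 to 0.916 across numbers. The targeted gene Pdcd1 was counted only in control 2, with 13 fragments or 0.416 FPKM, and was listed at 0 in the other 3 libraries, including control 1, so it does not check the genotype labels. The Y-linked gene Ddx3y had 9.48 FPKM in Pd1CKO 2 and was listed at 0 in the other libraries, where Xist had 34.7 to 61.2 FPKM. Libraries are given below in the order control 1, Pd1CKO 1, control 2 and Pd1CKO 2.

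The mRNA-binding proteins of the Igf2bp family, which stabilise growth-promoting transcripts in fetal tissue, were the abundant members of the early set. Igf2bp1 (ENSMUSG00000013415, chr11:95957163-96005940, minus strand, 17 exon blocks) had 16.5, 18.5, 6.83 and 7.66 FPKM. Both number 1 libraries lay far above both number 2 libraries, and in each number the Pd1CKO library was slightly higher than its control. Number 2 differed from number 1 by -1.16 ± 0.11 on the log2(FPKM + 1) scale (SE, limma adjusted p = 0.00203, 2 libraries against 2), and the level was 2.41-fold higher in number 1. As these are bulk samples, fewer cells of a type and less RNA per cell cannot be told apart for this and every later difference.

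Igf2bp2 (ENSMUSG00000033581, chr16:22059009-22163299, minus strand) had 13.98, 17.3, 8.65 and 8.30 FPKM. The numbers again did not overlap, with a log2 difference of -0.81 ± 0.12 (limma adjusted p = 0.00785), and the level was 1.85-fold higher in number 1. Igf2bp3 (ENSMUSG00000029814, chr6:49085223-49214957, minus strand) had 5.33, 6.59, 4.49 and 4.36 FPKM. Its number 2 libraries were the lower pair as well, but the difference of -0.35 ± 0.13 did not pass the threshold of 0.05 (limma adjusted p = 0.0838). The value for Igf2bp3 is uncertain, because 18.7% of its exonic bases also belong to the opposite-strand gene Malsu1, which had 5.99, 5.30, 1.52 and 1.24 FPKM, and the strand setting of the counting is not stated in the sources used here.

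Lin28a and Lin28b, whose proteins hold back let-7 maturation, had low mRNA levels. Lin28b (ENSMUSG00000063804, chr10:45376620-45486395, minus strand) had 1.44, 1.42, 1.43 and 1.48 FPKM from 210 to 243 fragments. The 4 values lay within a few percent of each other, and the fold of number 2 over number 1 from summed fragments was 1.02 with an exact 95% counting interval of 0.894 to 1.16. Counting intervals here are Clopper-Pearson intervals on a library's share of the fragments compared, and they cover counting error only. In limma the log2 difference of Lin28b between the numbers was 0.01 ± 0.13 (adjusted p = 0.944).

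Lin28a (ENSMUSG00000050966, chr4:134003330-134018841, minus strand) had 0.256, 0.0267, 0.0618 and 0.0276 FPKM, from 19, 2, 4 and 2 fragments. Control 1 stood above the other libraries, and both Pd1CKO values lay below both controls, an arrangement that 6.14% of tested genes also had, while 8.37% had both Pd1CKO libraries above both controls. Within number 1 the fold of Pd1CKO over control was 0.104 (0.0118 to 0.433), and within number 2 it was 0.447 (0.0405 to 3.12). The interval of number 2 includes both no change and a large change, so a difference there was not detectable at this depth. Lin28a did not reach the mean of 1 FPKM needed for the main test. In the limma fit with no filter its genotype difference was -0.17 ± 0.10 with an adjusted p of 0.9999.

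Trim71, the vertebrate counterpart of the nematode let-7 target lin-41 and a ubiquitin ligase of early neural progenitors (ENSMUSG00000079259, chr9:114507133-114564369, minus strand), had 0.173, 0.206, 0.0463 and 0.0414 FPKM. These values came from 30, 36, 7 and 7 fragments, and the numbers did not overlap. The fold of number 2 over number 1 was 0.231 (0.120 to 0.415) from summed fragments, 0.268 (0.0992 to 0.622) between the controls and 0.201 (0.0756 to 0.458) between the Pd1CKO libraries. Trim71 also missed the filter of 1 FPKM. With no filter the limma difference was -0.19 ± 0.04 (adjusted p = 0.0783), and with limma-voom on the recovered fragments it was -2.03 ± 0.42 (adjusted p = 0.0117), so its call depends on the method.

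The nuclear factor I genes, whose proteins switch on astroglial genes and limit progenitor self-renewal, were the most abundant members. Nfib (ENSMUSG00000008575, chr4:82290173-82705750, minus strand) had 38.9, 54.6, 94.8 and 92.0 FPKM. Both number 2 libraries were above both number 1 libraries, and control 1 was the lowest. The level of Nfib was 2.00-fold higher in number 2, with a log2 difference of 1.004 ± 0.17 (limma adjusted p = 0.00957). The fold was 2.44 (2.38 to 2.50) between the controls and 1.69 (1.65 to 1.72) between the Pd1CKO libraries.

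Nfia (ENSMUSG00000028565, chr4:97772734-98118874, plus strand) had 19.6, 27.7, 32.04 and 30.4 FPKM. Nfix (ENSMUSG00000001911, chr8:84699876-84800344, minus strand) had 52.0, 69.2, 81.2 and 74.6 FPKM. In both genes control 1 was well below the other 3 libraries and Pd1CKO 1 lay between it and number 2. The log2 differences between the numbers, 0.40 ± 0.17 for Nfia and 0.37 ± 0.15 for Nfix, did not pass (limma adjusted p = 0.118 and 0.113). Without Pd1CKO 1 they were 0.65 and 0.57 and passed (limma adjusted p = 0.00671 and 0.00997), while without control 1 they were 0.16 and 0.17 and did not pass (0.108 and 0.135). Nfix also passed with all 4 libraries after quantile normalization (limma adjusted p = 0.0469), so both calls depend on the libraries and, for Nfix, on the scaling.

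Zbtb20 encodes a zinc finger repressor that acts in hippocampal and later neuronal fates and in astrocyte production. The gene (ENSMUSG00000022708, chr16:42875881-43642602, plus strand) had 5.77, 6.53, 9.26 and 9.25 FPKM. The number 2 libraries were nearly equal and lay above both number 1 libraries. The level was 1.51-fold higher in number 2, with a log2 difference of 0.52 ± 0.10 (limma adjusted p = 0.0158). Its exons span 30730 bp in union, the longest of the 10 genes. When a trend of expression with exon length was removed from each library, an alternative chosen after seeing the data, the difference shrank to 0.07 (adjusted p = 0.558), so the call for Zbtb20 does not hold apart from that trend. Without control 2 or without Pd1CKO 2 the adjusted p was 0.119 or 0.115, at nearly the same difference of 0.52.

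**Figure D2:**
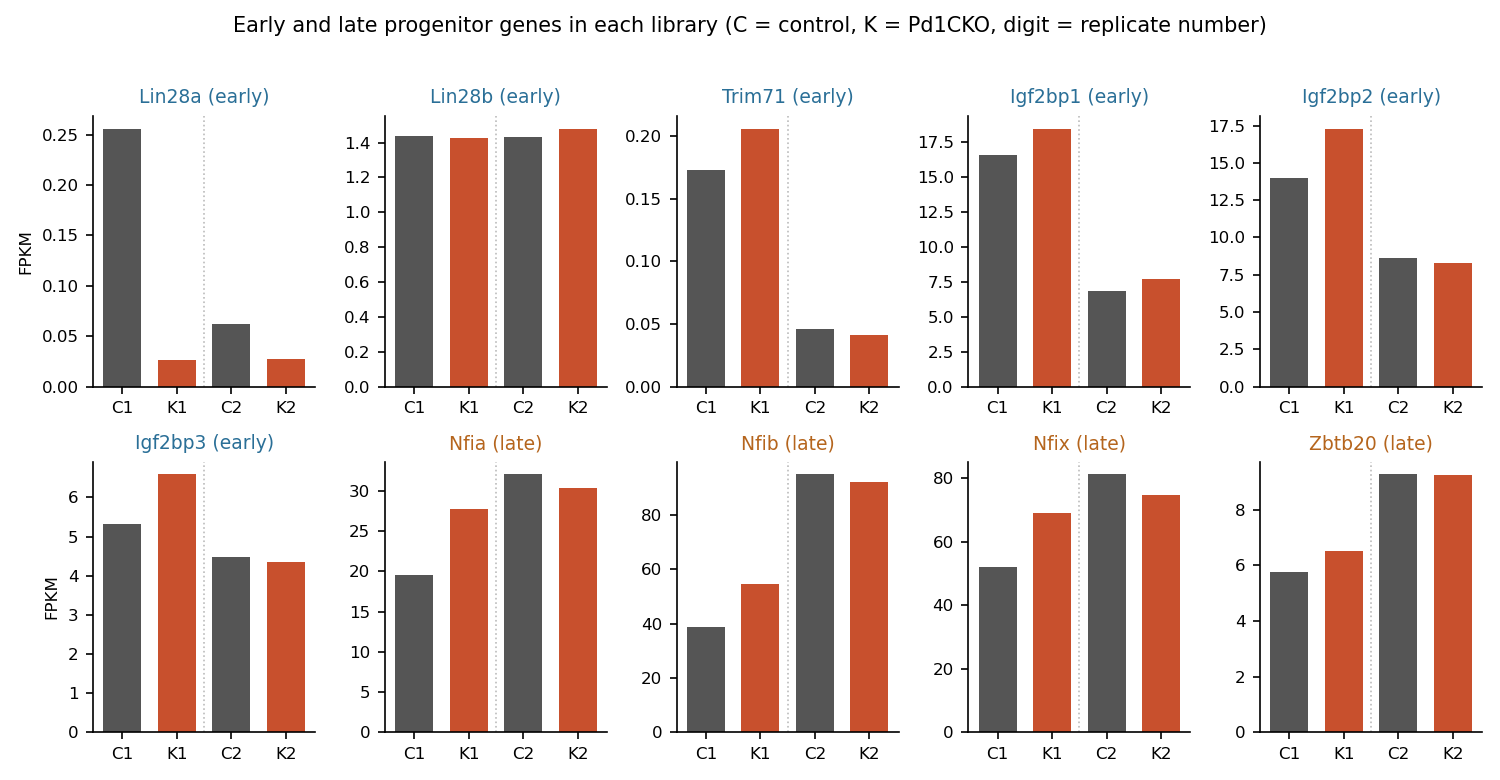
FPKM of the 10 genes in each of the 4 libraries (bars, 1 library each; grey, control; orange, Pd1CKO; each panel has its own axis from 0). Igf2bp1 falls from 16.5 and 18.5 FPKM in number 1 to 6.83 and 7.66 in number 2, and Nfib goes from 38.9 and 54.6 to 94.8 and 92.0.

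Between the numbers, the limma fit called 4 of the 8 tested members, against 35.0% of all tested genes (4877 of 13927, and 2614 without control 2 or 2787 without Pd1CKO 2). Igf2bp1 and Igf2bp2 were lower in number 2, as were 18.5% of tested genes, and Nfib and Zbtb20 were higher, as were 16.5%. Counting all 10 genes without a filter, the numbers did not overlap for 8. Trim71, Igf2bp1, Igf2bp2 and Igf2bp3 were lower in both number 2 libraries, an arrangement of 34.1% of tested genes, and Nfia, Nfib, Nfix and Zbtb20 were higher in both, as were 38.5%. With so large a share of genes differing between the numbers, non-overlap alone does not set the members apart. Long genes leaned the same way as the late set, and the 2705 tested genes with exon lengths in the range of the tested members, 7351 to 30730 bp, had a median difference of 0.21 with 73.5% above 0, against 0.03 and 53.2% over all tested genes. With the length trend removed the differences were 0.18 for Nfia and 0.24 for Nfix, neither of which passed, and 0.71 for Nfib, which did (limma adjusted p = 0.286, 0.176 and 0.00929). Igf2bp1 lay further out, with only 4.22% of tested genes showing a lower difference, and Nfib lay above 97.6% of them. Every p-value here measures only the spread between these 4 libraries, which may be technical.

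The balance of the sets gave the same order of libraries by several sums. The mean log2(FPKM + 1) of the 6 early genes minus that of the 4 late genes was -2.45 and -2.76 in control 1 and Pd1CKO 1 and -3.65 and -3.58 in control 2 and Pd1CKO 2. The summed FPKM of the 3 Nfi members divided by that of the 3 Igf2bp genes was 3.08, 3.58, 10.4 and 9.69 in that order of libraries. Both measures put the number 2 libraries towards the late side. Within number 1 the Pd1CKO library lay further to that side, and within number 2 the control did. The early mean itself was also higher in Pd1CKO 1 than in control 1, at 2.16 against 2.09, beside late means of 4.92 and 4.54. Neither measure was computed with the trend of expression with exon length removed.

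**Figure D3:**
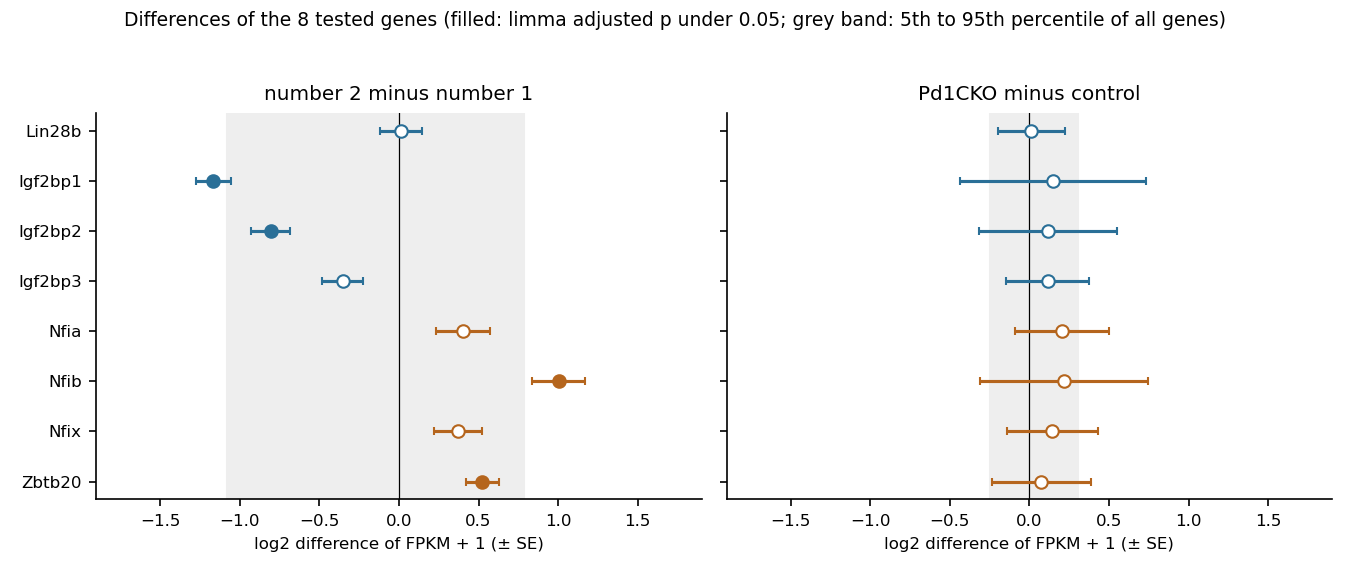
Differences of the 8 tested genes on the log2(FPKM + 1) scale (points with SE, blue early and brown late) between the numbers at the left and the genotypes at the right; the grey band holds the middle of all tested genes, from the 5th to the 95th percentile. Igf2bp1 at -1.16 lies beyond the band and Nfib at 1.004 lies beyond it on the other side, while all 8 genotype differences are within 1 SE of 0.

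Pd1CKO did not differ detectably from control for any tested member. The limma fit over genotype called 0 of 8 members and 0 of 13927 genes (0.0%), with 47 genes and none of the members at an unadjusted p under 0.05, and limma-voom also called 0 genes. The genotype differences of the tested members ran from 0.01 ± 0.21 for Lin28b to 0.22 ± 0.53 for Nfib, with adjusted p of 0.9998 throughout. Nfib averaged 66.8 ± 39.6 FPKM in control and 73.3 ± 26.4 in Pd1CKO, and Igf2bp1 averaged 11.7 ± 6.86 and 13.1 ± 7.63 (SD, n = 2 each), so the spread within a genotype was larger than the difference. The spread within each genotype holds the difference between the numbers, and this fit therefore sets no close bound on a genotype effect.

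Within the numbers, where each genotype has 1 library and no test is possible, the late genes went different ways. In number 1, the fold of Pd1CKO over control was 1.42 (1.36 to 1.48) for Nfia, 1.40 (1.37 to 1.44) for Nfib and 1.33 (1.29 to 1.37) for Nfix. In number 2, the same folds were 0.948 (0.914 to 0.983), 0.970 (0.953 to 0.988) and 0.919 (0.893 to 0.945). Zbtb20 was higher in Pd1CKO 1, at 1.13 (1.08 to 1.19), and near equality in number 2, at 0.998 (0.959 to 1.04). The Nfi genes were thus clearly higher in the Pd1CKO library of number 1 and slightly lower in that of number 2. Tissue markers also differed between control 1, the library low in Nfi genes, and Pd1CKO 1, and their part in these ratios was not tested. Diencephalic markers summed to 58.4 FPKM in control 1 and 19.4 in Pd1CKO 1, ventral telencephalic markers to 471 and 325, and neuron markers to 2011 and 1473, while meningeal markers summed to 49.4 and 89.0. All 7 tested diencephalic and all 10 ventral markers were lower in Pd1CKO 1 than in control 1, while 4 of 10 neuron markers were higher. Control 1 had the highest diencephalic and ventral sums of the libraries, and Pd1CKO 1 had the lowest neuron and the highest meningeal sum. In number 2 the sums of control and Pd1CKO were 14.6 and 11.0 FPKM for diencephalic, 202 and 217 for ventral, 2744 and 2696 for neuron and 3.03 and 4.09 for meningeal markers. The number 2 libraries differed most in hem and choroid plexus markers, which summed to 32.7 FPKM in control 2 and 353 in Pd1CKO 2. Of these 10 markers, 9 were higher in Pd1CKO 2. In number 1 their sums were 231 and 314 FPKM.

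The early genes showed smaller ratios. Igf2bp1 was the only tested member whose interval lay above 1 in both numbers, at 1.12 (1.06 to 1.17) in number 1 and 1.12 (1.03 to 1.22) in number 2. Igf2bp2 had folds of 1.24 (1.17 to 1.32) and 0.960 (0.882 to 1.05), and Igf2bp3 had 1.24 (1.13 to 1.36) and 0.972 (0.868 to 1.09). Lin28b was level in both numbers, with 0.991 (0.826 to 1.19) and 1.04 (0.857 to 1.25). Of the 8 tested members, 7 were higher in Pd1CKO 1 than in control 1, as were 54.7% of tested genes, and 2 were higher in Pd1CKO 2 than in control 2, as were 50.0%.

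**Figure D4:**
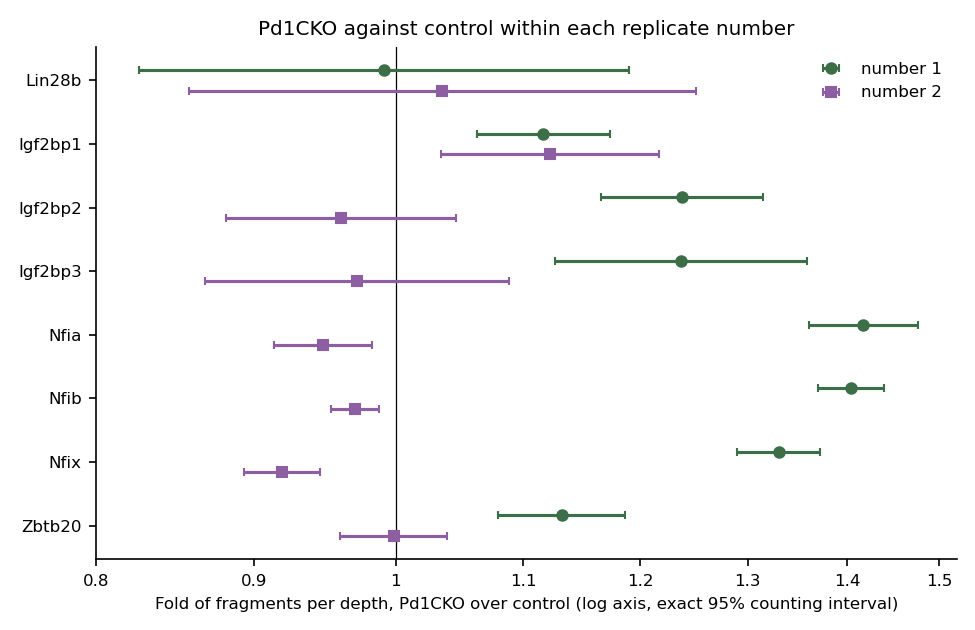
Fold of Pd1CKO over control within number 1 (green circles) and number 2 (purple squares) for the 8 tested genes on a log axis, with exact 95% counting intervals. The Nfi genes sit at 1.33 to 1.42 in number 1 and at 0.919 to 0.970 in number 2, while Igf2bp1 is at 1.12 in both.

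Long genes as a class were higher in Pd1CKO 1 than in control 1. Among the same 2705 long genes, the median log2 ratio within number 1 was 0.19 and 82.3% were above 0, against a median of 0.03 over all tested genes. In number 2 the median of these long genes was 0.01. The late genes had a median of 0.44 within number 1 and the early tested genes 0.21, so the early genes were at the level of other long genes. With the length trend removed, the log2 ratios within number 1 were 0.30 for Nfia, 0.25 for Nfib and 0.28 for Nfix, but -0.02 for Igf2bp1 and -0.16 for Zbtb20, which changed sign.

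Part of a list of other let-7 targets was lower in number 2, as were Igf2bp1 and Igf2bp2. Of 16 tested genes on this list, all outside the members, 9 were lower in number 2, none was higher and 7 did not pass. Over all tested genes 18.5% were lower, and of 10 radial glia markers 8 were. The list had a median difference of -0.52 against 0.03 over all tested genes. Hmga2, a chromatin protein of young neural stem cells, had 7.59, 9.77, 1.24 and 1.46 FPKM, with a log2 difference of -2.03 ± 0.15 (limma adjusted p = 0.00119). Ccnd1, the D-type cyclin of the G1 phase, had 32.7, 29.5, 11.1 and 10.5 FPKM, with a difference of -1.44 ± 0.10 (limma adjusted p = 0.000944). At the other end of the tested targets, the receptor gene Igf1r and the cyclin-dependent kinase gene Cdk6 had differences of 0.23 and 0.13, which did not pass (limma adjusted p = 0.184 and 0.486). Without control 2 the count of targets lower in number 2 was 5, and over the libraries left out in turn it was 5 to 10. No gene of the list was called between the genotypes.

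Most genes that process let-7 were not called between the numbers, which also held for most tested genes. Of 15 tested processing genes and LIN28 partners, 2 were lower in number 2, 1 was higher and 12 did not pass, with a median difference of 0.11. Over all tested genes 18.5% were lower and 16.5% were higher. Msi1, an RNA-binding protein of neural stem cells that works with LIN28, had 77.5, 77.0, 34.3 and 35.5 FPKM, a difference of -1.12 ± 0.08 (limma adjusted p = 0.00109). Khsrp, which promotes let-7 processing, was lower as well, at -0.91 ± 0.09 (limma adjusted p = 0.0022). The largest positive differences belonged to Xpo5, the exporter of miRNA precursors, at 0.37 (limma adjusted p = 0.128) and Zcchc6, a terminal uridylyltransferase, at 0.36 (0.141), and neither passed. Drosha, the nuclear nuclease of miRNA processing, was the gene called higher, at 0.31 ± 0.09 (limma adjusted p = 0.0399), and is named after its values were seen.

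Mature miRNAs were not measured, because the libraries hold poly(A)-selected RNA, but host transcripts of let-7 loci were. AC162302.2 (ENSMUSG00000116305, chr15:85653616-85707524, plus strand), a noncoding gene whose exons contain let-7b and let-7c-2, had 1.47, 2.02, 5.67 and 5.81 FPKM from 51, 71, 172 and 197 fragments. Both number 2 libraries were well above both number 1 libraries, with a log2 difference of 1.30 ± 0.14 (limma adjusted p = 0.00306, and 0.000621 to 0.00503 with each library left out in turn). Hosts of other let-7 loci gave no common direction. Mir99ahg, 6720427I07Rik, Spaca6, Huwe1 and Wdr82, which hold let-7c-1, let-7d, let-7e, let-7f-2 with miR-98, and let-7g, had differences of 0.09, -0.22, -0.04, 0.40 and 0.12, none of which passed (limma adjusted p = 0.151 to 0.802). The annotated span of 6720427I07Rik (chr13:48532905-48546500, minus strand) also contains let-7a-1 and let-7f-1. AC153911.1, a transcribed processed pseudogene that overlaps let-7i, had 6.32, 7.06, 0.417 and 0.447 FPKM and was lower in number 2, at -2.42 ± 0.13 (limma adjusted p = 0.000595). Reads of a processed pseudogene can come from its parent gene, so this value is uncertain. The noncoding gene 2610203C20Rik, with miR-125b-1, another regulator of Lin28a, in an intron, had 3.29, 5.40, 7.87 and 7.90 FPKM, a difference of 0.76 ± 0.20 (limma adjusted p = 0.0361). Gm28119, whose exon holds the same miR-125b-1, had a difference of 0.21 and Tenm4, with miR-6394, one of 0.48, and neither passed (limma adjusted p = 0.653 and 0.105). Mir99ahg and Spaca6 also hold miR-125b-2 and miR-125a, so 1 of the 5 hosts of this family was called, against 35.0% of all tested genes.

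Over the whole table, the share of genes called lower in number 2 was no larger among genes with a let-7 8mer. Of 11341 tested genes with no 8mer in the longest 3′ UTR, 19.1% were called lower in number 2, of 411 genes with 1 8mer 15.3% were, and of 15 genes with 2 or more 13.3% were. The median differences were 0.04, 0.04 and 0.14. The classes were not tested against each other, and their 3′ UTRs differ in length, with medians of 1177, 2431 and 4769 nt. Of the 20 listed let-7 targets, 16 held a match of any kind and 5 held an 8mer.

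Other regulators of progenitor competence and glial genes were split. Of 19 tested competence regulators, 7 were lower in number 2, 3 were higher and 9 did not pass, with a median of -0.25. Hmga2, described above, is on this list too. The highest tested were Zbtb18, a repressor needed for cortical neuron maturation, with 38.0, 51.1, 103 and 101 FPKM, and Foxp1, with 4.85, 5.46, 8.01 and 9.73 FPKM. Nfic, the remaining member of the nuclear factor I family, had 7.12, 10.4, 7.91 and 7.88 FPKM and a difference of -0.12 ± 0.18 between the numbers (limma adjusted p = 0.635).

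Of 17 tested gliogenic and astroglial genes, 7 were higher in number 2, 5 were lower and 5 did not pass, with a median of 0.08. Tnc, an extracellular matrix protein of late radial glia, had 2.20, 3.04, 14.8 and 15.7 FPKM, a difference of 2.18 ± 0.14 (limma adjusted p = 0.00092). Aldh1l1, an astrocyte lineage enzyme, had 2.04, 2.04, 9.02 and 9.27 FPKM, a difference of 1.74 ± 0.10 (limma adjusted p = 0.000788). The lowest were Id3 at -2.00 and Apoe at -1.76, both called lower (limma adjusted p = 0.00125 and 0.00101). The pattern of the Nfi genes was therefore shared by some glial genes and opposed by others.

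Genes of cortical layers and hippocampus that surround Zbtb20 function gave a mixed picture. Of 9 tested genes, 4 were higher, 2 were lower and 3 did not pass, with a median of 0.30. Sox5, a deep layer regulator, had 5.59, 7.41, 15.8 and 16.9 FPKM, a difference of 1.22 ± 0.14 (limma adjusted p = 0.0036). Lmo2 and Lef1 were lower, at -1.12 and -0.53 (limma adjusted p = 0.00481 and 0.0368).

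**Figure D5:**
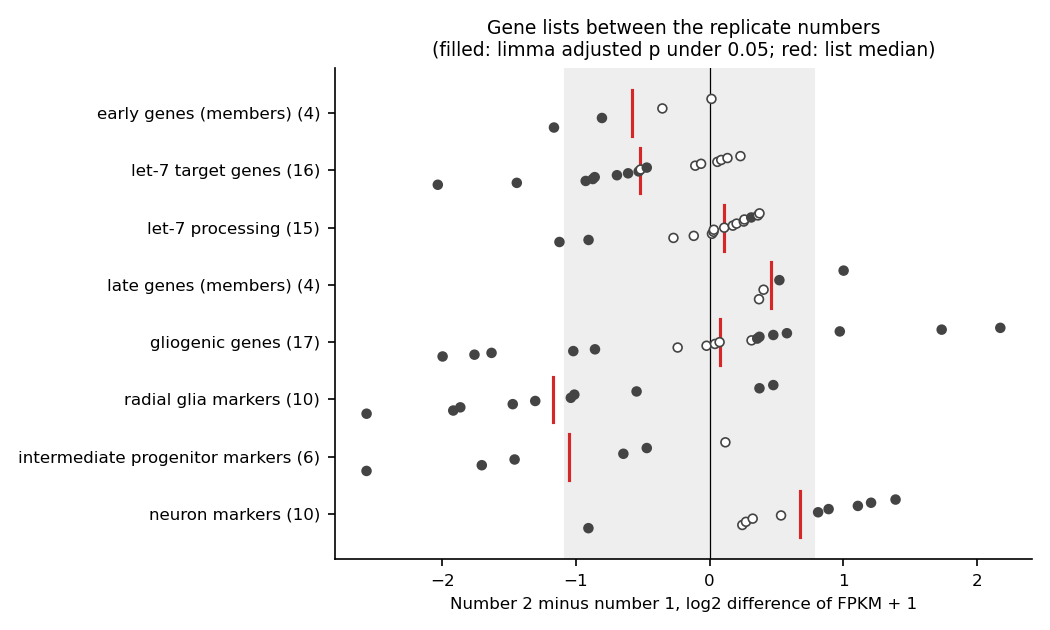
Differences between number 2 and number 1 on the log2(FPKM + 1) scale for the tested genes of 8 lists (1 point a gene, number of genes in brackets; filled points passed, red bars are list medians, the grey band runs from the 5th to the 95th percentile of all tested genes). Let-7 targets have a median of -0.52 with 9 of 16 lower, against 18.5% of all tested genes, and neuron markers a median of 0.67.

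Markers of cell types moved with the numbers as well, and their part in the differences of the members was not tested. Of 10 radial glia markers, 8 were lower and 2 higher in number 2, and their summed level was 940 to 972 FPKM in number 1 and 622 to 637 in number 2. Of 6 intermediate progenitor markers, 5 were lower and 1 did not pass, with sums of 408 to 425 and 201 to 202 FPKM. Of 10 neuron markers, 5 were higher, 1 was lower and 4 did not pass, with sums of 1473 to 2011 and 2696 to 2744 FPKM. Between the numbers, Igf2bp1 and Igf2bp2 were thus lower where the radial glia sum was lower. The Nfi genes, which neurons also express, were higher in number 2, as was the neuron sum. Within number 1 the neuron and Nfi sums went opposite ways. Neuron markers summed to 2011 FPKM in control 1 and 1473 in Pd1CKO 1, while the Nfi members summed to 110 and 152 FPKM. Tubb3 alone went from 1190 to 784 FPKM, and 4 of the 10 neuron markers were higher in Pd1CKO 1.

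Markers of tissue next to the cortex also differed. Of 8 meningeal and mesenchymal markers, 7 were lower in number 2 and 1 did not pass, with sums of 49.4 to 89.0 FPKM in number 1 and 3.03 to 4.09 in number 2. Ventral telencephalic markers were lower for 6 of 10 genes, higher for 1 and not called for 3, with sums of 325 to 471 and 202 to 217 FPKM. Diencephalic markers were lower for 2 of 7, with sums of 58.4 FPKM in control 1, 19.4 in Pd1CKO 1 and 11.0 to 14.6 in number 2, so control 1 was the high library. Hem and choroid plexus markers were lower for 5 of 10, with sums of 231 to 314 and 32.7 to 353 FPKM, the lowest being control 2. The 5 lower genes were Msx1, Rspo1, Wnt8b, Wnt3a and Lmx1a. Ttr, which was not called, made up most of each sum, at 182, 246, 17.0 and 325 FPKM. Clic6, Kcne2 and Folr1 were, like Ttr, far higher in Pd1CKO 2 than in control 2. Endothelial markers were lower for 4 of 7 (sums of 56.0 to 64.5 and 32.4 to 33.2 FPKM) and microglial markers for 2 of 7 (22.4 to 26.1 and 18.5 to 18.9 FPKM). No marker on these lists was at 0 in any library, and none was called between the genotypes.

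Of 10 erythroid markers, 6 were lower in number 2, 2 were higher and 2 did not pass, with sums of 2093 to 2132 and 1153 to 1241 FPKM. The embryonic globin genes were among the lower ones, with Hbb-y at 981, 1079, 101 and 68.0 FPKM and Hbb-bh1 at 38.4, 30.8, 0.906 and 0.451 FPKM. The adult globin genes were split. Hbb-bs was higher, at 190, 175, 570 and 545 FPKM, and so was Hbb-bt, at 107, 141, 193 and 168 FPKM. Hba-a1 was lower, at 556, 485, 341 and 341 FPKM, as was Hba-a2, at 15.3, 26.0, 7.68 and 10.4 FPKM. All 4 libraries carry the label of embryonic day 13, and these genes, named after their values were seen, changed between the numbers in the same libraries as Igf2bp1 and Nfib.

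The genes whose profiles over the 4 libraries were nearest to each tested member were found by the root mean square distance of centred log2(FPKM + 1) values. For Igf2bp1 these were Clec14a, E2f2 and Loxl2, at 0.0348 to 0.0454, and for Igf2bp2 they were Cdca2, Emp1 and Angptl4, at 0.0111 to 0.0271. Igf2bp3 was nearest to Thsd1, Rdx and Rbm45, and the flat Lin28b to Rtf1, Plekhg4 and Emc7. Nfia was nearest to Htt, Slc7a1 and Tcf20, Nfib to Nkain2 and Limch1, and Nfix to Cog3, Fem1b and Zcchc6. The closest profile of all was that of Fbxl20 to Zbtb20, at 0.0019, followed by Mapk9 and Thtpa. With 4 libraries that differ mainly by number, many genes share each profile, and no member was among the nearest of another.

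By level, the 10 genes kept most of their order. Nfib and Nfix had the highest mean FPKM, 70.1 and 69.3, and changed places, with Nfix above Nfib in both number 1 libraries and below it in both number 2 libraries. Nfia followed with 27.4, then Igf2bp1 with 12.4, Igf2bp2 with 12.1, Zbtb20 with 7.70 and Igf2bp3 with 5.19 FPKM. Igf2bp1 exceeded Igf2bp2 in number 1 and was below it in number 2, where Zbtb20 stood above both, so these neighbours differ by less than their spread across libraries. Lin28b at 1.44, Trim71 at 0.117 and Lin28a at 0.0930 FPKM came last, and the final pair also overlapped.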

How the data were processed

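Poly(A)-selected RNA of 4 libraries was sequenced, per the labels' protocols. The submitters' processing notes list the mm10 build and the tools fastp, FastQC, featureCounts, HISAT2, StringTie and TopHat, without roles. The deposited values carry no unit and were taken for the authors' FPKM, because, multiplied by exon-union length (GENCODE M21), 97.3% to 97.5% of values below 200 fragments were whole multiples of 1 step, within 0.1. The implied depths were 18570000 and 18740000 fragments in control 1 and Pd1CKO 1, and 16200000 and 18100000 in control 2 and Pd1CKO 2. The coordinates of all 10 members equal those of GENCODE.

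limma 3.58.1 (R 4.3.3, trend) was fitted on log2(FPKM + 1) to 13927 genes that averaged 1 FPKM or more, once with genotype and once with replicate number as the only term, with two-sided tests and Benjamini-Hochberg adjustment at 0.05 over all of them. This scale understates changes of low genes, and 2 members, Lin28a and Trim71, fell below the filter. The fits were also run on simulated data, but the outcome is not reported here and no result rests on it. Folds within a number use recovered fragments with 95% Clopper-Pearson intervals. Python 3.11.15 with pandas 2.3.3 and scipy 1.17.1 did the rest.

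Named genes are all members, the 3 nearest profiles of each (leaving out predicted genes, pseudogenes and RIKEN names), let-7 host genes, and up to 4 genes of each list, the 2 highest and the 2 lowest by the difference between numbers, besides genes said to be named after their values were seen. Some genes under this rule are not reported here. Members and lists were chosen with earlier results of these data known. Alternatives were other pseudocounts, filters and scalings, limma-voom on recovered fragments, a second model term, each library left out in turn and, chosen after seeing the data, removal of the exon length trend. The other deposited tables were not used here.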

Additional observations from a re-analysis of the deposited data

Results flagged for a closer look

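For 7 of the 8 tested members the ratio of Pd1CKO to control pointed in opposite directions in the 2 numbers. With 1 library of each genotype in a number, this difference was not tested. The log2 ratio in number 1 minus that in number 2 was 0.5576 for Nfia, 0.5228 for Nfib and 0.5258 for Nfix, each higher in Pd1CKO 1 and lower in Pd1CKO 2. It was 0.3416 for Igf2bp2, 0.2964 for Igf2bp3 and 0.1554 for Zbtb20, in the same sense. Lin28b went the other way by -0.03699. The counting intervals of Igf2bp2, Igf2bp3 and Zbtb20 in number 2, and of Lin28b in both numbers, include equality. Under upper quartile scaling the log2 ratios were 0.00608 and 0.0314 for Lin28b and 0.173 and 0.000212 for Zbtb20 in numbers 1 and 2, so that 5 of the 8 kept opposite directions. Across all tested genes, 26.4% were higher in Pd1CKO 1 and lower in Pd1CKO 2.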

How the results depend on the processing

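With the replicate block, 5 genes were called between the genotypes in place of 0, 3 higher and 2 lower, with no member among them (adjusted p of members 0.959 to 0.994). The deviations of same-numbered libraries from their genotype means correlated at 0.799, but the labels give the numbers no meaning, and no call on a member changed under the block. Between the numbers, 2976 genes in place of 4877 were called with no filter, 2614 to 6850 with each library left out in turn, and 3 to 6 members in place of 4. Leaving out 1 library sets number partly against genotype, and the lone library of a group is then assumed to vary like the others. The Nfib call was lost with no filter (adjusted p = 0.0529), Igf2bp3 passed with the length trend removed (0.0141) or without control 1 (0.0203), and Nfix passed after quantile normalization (0.0469). The causes were not tested.

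The early minus late mean with a pseudocount of 5 was -1.585, -1.841, -2.539 and -2.476 in control 1, Pd1CKO 1, control 2 and Pd1CKO 2. With a pseudocount of 0.1 it was -3.688, -4.731 and -4.717 in the last 3, and over members of at least 1 FPKM it was -1.546, -1.753 and -2.761 in control 1, Pd1CKO 1 and Pd1CKO 2, so its size depends on the pseudocount and the low genes while number 2 stayed lower.

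Signs turned for genotype differences that were not called. Quantile normalization gave -0.04308 for Lin28b, and removal of the length trend gave -0.07448 for Lin28b and -0.09434 for Zbtb20, and -0.1655 for Lin28b between the numbers. The length trend also turned the ratios within number 1 of Igf2bp1 to -0.01969 and of Zbtb20 to -0.1559. With each library left out in turn, the genotype differences ran from -0.00529 to 0.02749 for Lin28b, -0.4356 to 0.7316 for Igf2bp1, -0.3701 to 0.6063 for Igf2bp2, -0.1365 to 0.365 for Igf2bp3, -0.1382 to 0.545 for Nfia, -0.4147 to 0.8505 for Nfib, -0.1742 to 0.459 for Nfix and -0.2246 to 0.376 for Zbtb20, and the number difference of Lin28b from -0.0005116 to 0.02908. Lin28a and Trim71 rest on 2 to 36 fragments a library, which limits both to large changes.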
